A study of Mus musculus with 16 samples.

Results

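The genes described here are 10 effectors, targets and ligands of the Notch pathway, Hes1, Hes5, Hes6, Hey1, Nrarp, Lfng, Rbpj, Maml1, Jag1 and Jag2. They were chosen by gene symbol, not by any measured value, and are 10 of the 48440 genes listed for each intestinal segment. RNA-Seq was performed on GFP+ intestinal stem and progenitor cells (ISCs) of female Lgr5-EGFP mice, which make green fluorescent protein from the stem cell gene Lgr5, after vertical sleeve gastrectomy (VSG, removal of most of the stomach) or sham surgery. The 16 libraries came from 7 mice. Of the libraries, 6 were duodenal and 6 jejunal (4 VSG and 2 sham in either case, with the same 6 mice behind both), and 4 were ileal (VSG replicates 4 and 5 and sham replicates 1 and 2). Both groups carried the Lgr5-EGFP allele, ate a 60% fat diet for 16 weeks, had surgery and were fasted overnight before collection. The methods give an age of 8 to 16 weeks for all animals of the study, without the step this refers to. Cells were collected 4 weeks after surgery, 15 minutes after a liquid meal, from 6 cm of each segment. Dead and apoptotic cells and cells with CD31 or CD45 on the surface were removed in the sort. The mouse behind a replicate number is the same in each segment, whereas VSG and sham mice of equal number are not the same animal. The comparison asks whether Notch activity, as read from genes downstream of and beside the receptors, differed after VSG.

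Notch is a receptor that is cleaved when a ligand on a neighbouring cell binds it. The freed intracellular part enters the nucleus and joins the DNA-binding protein Rbpj and co-activators such as Maml1. This complex switches on target genes, among them the repressors Hes1, Hes5 and Hey1 and the feedback inhibitor Nrarp. In the intestinal crypt, active Notch keeps stem cells undifferentiated and steers daughter cells to the absorptive fate, and cells with low Notch activity turn on Atoh1 and become secretory cells, enteroendocrine cells among them.

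The core sequence that Rbpj binds is TGGGAA, or TTCCCA on the opposite strand, and it was searched for on both strands from 250 bases before to 50 bases after each transcription start in RefSeq promoters of GRCm38.p6. The 300-base window held it in 8397 of 32851 promoters (25.6%) of all genes. Of 10 promoters listed for 8 of the genes described here, 4 held it, those of Hes5, Lfng and both starts of Rbpj. By gene this is 3 of 8, as the Rbpj windows overlap and share a TTCCCA. The longer form GTGGGAA was in 6.38% of all promoters and in those of Hes5 and Lfng. Hes1 and Hey1 had no entry. The promoters of Nrarp and Lfng, on whose values the results turn, and of Hes5, a target that was hardly detected, are printed 5′ to 3′ on the plus strand, with each TGGGAA or TTCCCA in capitals.
Lfng, chr5:140607091-140607390: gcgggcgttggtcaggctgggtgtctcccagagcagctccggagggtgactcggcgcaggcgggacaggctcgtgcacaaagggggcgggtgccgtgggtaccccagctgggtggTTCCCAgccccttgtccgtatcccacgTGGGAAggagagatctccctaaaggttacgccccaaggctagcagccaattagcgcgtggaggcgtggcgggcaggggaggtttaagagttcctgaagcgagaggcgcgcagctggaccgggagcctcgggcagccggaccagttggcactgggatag
Nrarp, chr2:25180508-25180807: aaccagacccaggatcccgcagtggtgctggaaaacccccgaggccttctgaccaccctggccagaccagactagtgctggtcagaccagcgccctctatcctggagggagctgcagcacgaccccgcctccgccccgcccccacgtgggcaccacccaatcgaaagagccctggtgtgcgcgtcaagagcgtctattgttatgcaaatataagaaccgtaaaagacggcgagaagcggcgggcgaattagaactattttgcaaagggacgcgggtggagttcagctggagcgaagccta
Hes5, chr4:154960673-154960972: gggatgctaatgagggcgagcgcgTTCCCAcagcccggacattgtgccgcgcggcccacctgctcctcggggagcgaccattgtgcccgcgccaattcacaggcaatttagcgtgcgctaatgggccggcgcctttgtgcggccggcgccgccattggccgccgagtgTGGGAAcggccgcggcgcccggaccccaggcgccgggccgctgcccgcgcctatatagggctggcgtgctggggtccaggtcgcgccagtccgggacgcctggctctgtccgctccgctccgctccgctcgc
In Lfng the capitals start 135 bases (opposite strand) and 108 bases (plus strand) before the transcription start, and in Hes5 226 bases (opposite strand) and 82 bases (plus strand) before it. The Nrarp window holds no such 6 letters. A match describes the letters only and is neither a binding site nor a cause of any value given here.

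Expression is given as normalized counts, read counts that were scaled for depth within each segment, so levels in different segments were set on separate scales. The scaled totals were not equal. Jejunal sham replicate 1 summed to 47.1 M normalized counts, and the other 5 jejunal libraries to 33.47 to 34.48 M. The smallest step between values implied 33.7 to 63.6 M reads per duodenal library, 22.2 to 57.8 M per jejunal library and 10.9 to 36.4 M per ileal library. These numbers assume that 1 read has 1 value per library, which held for 74.1% to 92.8% of the low values of a library (within 0.01 of a whole number of steps), so they are estimates, as is any number of reads derived from them. On that footing a value of 0 allows up to 3 reads, equal to 1.76 to 6.21 normalized counts, counting error only. A 0 can also be a transcript that the estimate lost, since 1 or more libraries had a 0 for 11.6% of duodenal, 20.2% of jejunal and 36.1% of ileal genes with a mean above 50. Above a mean of 1000 that share was 0.0788%, 0.561% and 1.06%. In the jejunum, 2 libraries stood apart. VSG replicate 1 held 197000 normalized counts of Fabp6, a bile acid carrier of the ileum, where the other 5 jejunal libraries held 15.8 to 313 and the ileal libraries held 29160 to 208800. Sham replicate 1 was listed at 0 for Lgr5, the gene behind the sort, in the jejunum and in the ileum, and Lgr5 ranged from 152 to 6565 in the other 14 libraries. The summed level of 8 stem cell markers in that jejunal library was 8805 normalized counts, against 21790 to 32630 in the other 5 libraries, and its summed level of 8 enterocyte markers was 1684000, against 294800 to 697100. For the genes described here, results that rest on these libraries are given with and without them. Individual values of the other pathway genes and of the marker genes are given with all libraries only. Their dependence on these libraries is therefore not shown.

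Per kilobase of exon, Hes1 and Hes6 were the most abundant of the 10 genes. In the duodenum Hes1 had a median of 2777 normalized counts per kb over the 6 libraries (1867 to 2935), followed by Hes6 at 1802, Nrarp at 893 and Lfng at 266. Maml1 at 203, Jag1 at 181 and Rbpj at 135 came next, and Jag2 was at 13.7. Hes5 and Hey1 were listed at 0 in 4 of the 6 duodenal libraries. Neighbours in this order had overlapping ranges except Rbpj and Jag2. In the jejunum Hes6 (median 1043 per kb) and Hes1 (915 per kb) could not be ordered, as Hes6 was the higher in 3 of 6 libraries, and the range of Hes1 lay wholly above that of Nrarp (median 678 per kb). In the ileum Hes6 led with 443 per kb and Hes1 had 185, with 3 of 4 libraries in that order. The length used for Rbpj, 12750 bases, joins the exons of all its transcripts and lowers its value per kb.

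**Figure D1:**
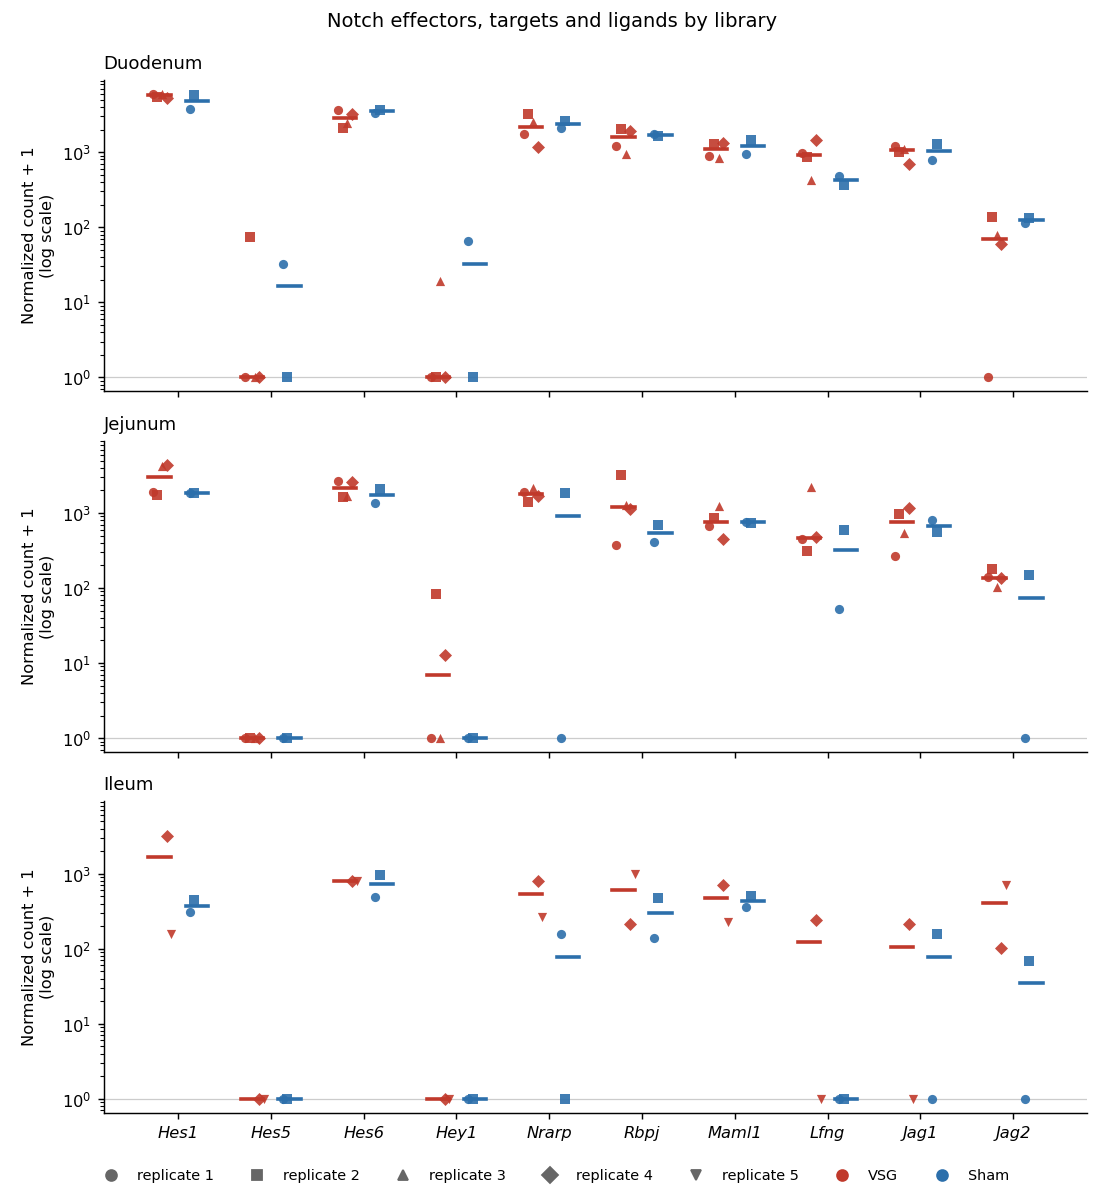
Normalized count plus 1 on a log axis for each of the 10 genes in every library, with VSG in red and sham in blue, a marker shape for each replicate number and a bar at the median of each group. The grey line marks libraries listed at 0. Hes1 sits above the others in the duodenum, and Nrarp and Jag2 in jejunal sham replicate 1 lie at 0 while sham replicate 2 lies among the VSG libraries.

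None of the 10 genes passed the thresholds for a change in any segment, for which the limma p had to be under 0.05 and its Benjamini-Hochberg adjusted form under 0.2 (over all genes tested), with a mean above 50 and more than 0.5 of log2 fold change in either direction. Of all genes tested, 0.0237% of duodenal, 0.0126% of jejunal and 0.0% of ileal genes passed them. The lowest adjusted p among these genes was 0.859 (duodenum), 0.76 (jejunum) and 0.736 (ileum; limma). At an unadjusted p under 0.05, none of 10 duodenal genes, 1 of 9 jejunal genes (Nrarp) and none of 8 ileal genes passed, against 6.27%, 6.04% and 3.28% of all genes tested in the 3 segments. In the duodenum 2 of the 10 had a fold change above 0 and their median log2 fold change of VSG against sham was -0.22, beside 0.01 over all genes, of which 50.7% were above 0. In the jejunum 8 of 9 were above 0 with a median of 1.12, beside 0.11 and 55.0% over all genes. That count and median rested in part on sham replicate 1, without which 6 of 9 were above 0 with a median of 0.07, beside -0.02 over all genes. In the ileum 7 of 8 were above 0 with a median of 0.88, beside 0.24 and 57.0% over all genes. The ileal result also rested on single libraries. Without sham replicate 1, 4 of 8 were above 0 with a median of 0.32, beside 0.30 over all genes. Without VSG replicate 4, 4 of 7 were above 0 with a median of 0.22, beside 0.02. Without sham replicate 2 and without VSG replicate 5, in turn, the medians were 1.64 and 3.36, beside 0.35 and 0.49. Hey1 in the jejunum and Lfng in the ileum had all sham libraries at 0. With both set at the bound that 3 reads per sham library allow, the medians over all libraries were also 1.12 and 0.88. Both genes already lay above those medians, so the unchanged medians say little about the zeros. Genes with only some sham libraries at 0, Nrarp and Jag2 among them, were left as fitted. Hes5 in the jejunum and Hes5 and Hey1 in the ileum were listed at 0 in every library and were not tested. The groups overlapped for each of these genes in the duodenum and the jejunum, whereas they were apart for 14.4% and 12.8% of all genes. They were apart for 2 of 8 in the ileum (Nrarp and Jag2, both higher after VSG), where 28.6% of all genes had groups apart and 17.0% were higher without overlap. For a single gene, 4 libraries against 2 can give no exact two-sided permutation p below 0.0667, and 2 against 2 none below 0.333.

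**Figure D2:**
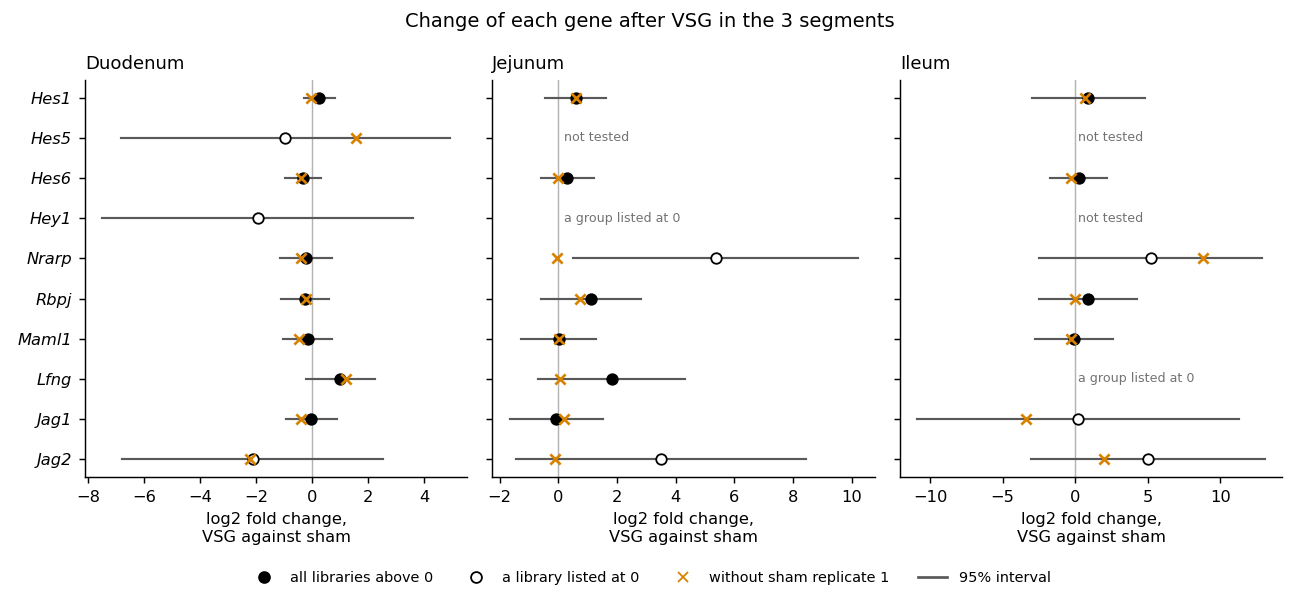
Log2 fold change of VSG against sham for each gene in each segment, with its 95% interval from limma. Filled circles are genes above 0 in every library, open circles have a library listed at 0, and crosses give the value without sham replicate 1 where the sham group is then not at 0. The axes of the 3 panels differ in range. All intervals include 0 except that of Nrarp in the jejunum, whose cross lies at -0.04.

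Hes1 (ENSMUSG00000022528, chr16:30064384-30067796, plus strand), the repressor through which Notch holds back Atoh1, was detected in all 16 libraries (positions of the genes are on GRCm38). Duodenal VSG replicates 1 to 4 had 5931, 5511, 5980 and 5247 normalized counts of it, while sham replicates 1 and 2 had 3804 and 5800. Sham replicate 2 lay among the VSG libraries, so the groups overlapped. The VSG mean of 5667 ± 350.3 (SD, n = 4) and the sham mean of 4802 ± 1412 (SD, n = 2) gave a log2 fold change of 0.27 (SE 0.24; 95% interval -0.27 to 0.81; limma adjusted p = 0.88, exact permutation p = 0.2). Without sham replicate 1 it was -0.04, and without sham replicate 2 it was 0.57 (limma unadjusted p = 0.0212), so its sign rested on sham replicate 1.

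Jejunal Hes1 was 1878, 1760, 4226 and 4326 in the VSG replicates and 1835 and 1850 in the sham replicates. VSG replicates 3 and 4 had more than the sham libraries, and replicates 1 and 2 were close to them. The log2 fold change was 0.60 (SE 0.47; 95% interval -0.44 to 1.64; limma adjusted p = 0.787, exact permutation p = 0.333). It was 0.78 without VSG replicate 1 and sham replicate 1. In the ileum the VSG libraries had 3161 (replicate 4) and 154 (replicate 5) and lay on either side of the sham libraries at 311 and 441. The ileal log2 fold change of 0.91 (SE 1.58) became 3.09 without VSG replicate 5 and -1.26 without VSG replicate 4.

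Hes6 (ENSMUSG00000067071, chr1:91411483-91414038, minus strand), a relative of Hes1 that counters it in other tissues, was also detected in all 16 libraries. Duodenal Hes6 was 3658, 2130, 2482 and 3195 after VSG and 3321 and 3661 after sham surgery. All VSG libraries lay below sham replicate 2, and replicate 1 lay above sham replicate 1. The log2 fold change was -0.31 (SE 0.28; 95% interval -0.96 to 0.33; limma adjusted p = 0.88, exact permutation p = 0.2). In the jejunum VSG libraries had 2647, 1627, 1657 and 2593 and sham libraries 1340 and 2114, a log2 fold change of 0.30 (SE 0.41; limma adjusted p = 0.85) that was -0.15 without VSG replicate 1 and sham replicate 1. The ileal values were 806 and 797 after VSG and 486 and 957 after sham surgery, with both VSG libraries between the sham libraries.

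Nrarp (ENSMUSG00000078202, chr2:25180758-25183339, plus strand), a target that dampens Notch signalling by binding its nuclear complex, had the lowest p of the 10 genes, and that p rested on 1 library. In the jejunum it had 1895, 1411, 2158 and 1684 normalized counts after VSG. Sham replicate 2, at 1819, lay among them, and sham replicate 1 was listed at 0, so the groups overlapped. The log2 fold change was 5.37 (SE 2.18; 95% interval 0.51 to 10.2; limma unadjusted p = 0.0336, adjusted p = 0.76; exact permutation p = 0.2). Without sham replicate 1 it was -0.04, without that library and VSG replicate 1 it was -0.08, and without sham replicate 2 it was 10.8. Sham replicate 1 is also the jejunal library at 0 for Lgr5 and with the lowest stem cell and highest enterocyte marker sums. The part of these in the Nrarp value was not tested, and in bulk libraries fewer cells of a type and less RNA per cell cannot be told apart.

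The same sham mouse had 2070 normalized counts of Nrarp in the duodenum, where sham replicate 2 had 2643 and the VSG libraries had 1753, 3276, 2540 and 1165. Both sham libraries lay within the VSG range, and the log2 fold change was -0.20 (SE 0.41; 95% interval -1.13 to 0.72; limma adjusted p = 0.929). In the ileum Nrarp was 793 and 267 after VSG and 155 in sham replicate 1, with sham replicate 2 listed at 0. Both VSG libraries lay above the sham libraries (exact permutation p = 0.333). The ileal log2 fold change was 5.21 (SE 3.10; limma adjusted p = 0.736), 1.56 without sham replicate 2 and 8.85 without sham replicate 1.

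Hes5 (ENSMUSG00000048001, chr4:154960923-154962371, plus strand) and Hey1 (ENSMUSG00000040289, chr3:8663359-8667256, minus strand), repressors that Notch induces in many tissues, were near the limit of detection. Hes5 had 73.8 normalized counts in duodenal VSG replicate 2 and 31.4 in sham replicate 1, from about 76 and 34 reads by the estimate above, and was listed at 0 in the other 14 libraries. Hey1 had 18.4 in VSG replicate 3 and 63.7 in sham replicate 1 of the duodenum, and 81.1 and 11.9 in VSG replicates 2 and 4 of the jejunum. It was listed at 0 in the other 12 libraries, both jejunal sham libraries among them. No direction could be read from either gene at this depth.

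In the nuclear complex, Rbpj (ENSMUSG00000039191, chr5:53466152-53657362, plus strand), the DNA-binding protein, and Maml1 (ENSMUSG00000050567, chr11:50255634-50292311, minus strand), the co-activator, were detected in all 16 libraries. Duodenal Rbpj was 1208, 2020, 941 and 1933 after VSG and 1773 and 1663 after sham surgery, with both sham libraries inside the VSG range (log2 fold change -0.24, SE 0.38; limma adjusted p = 0.912). In the jejunum Rbpj was 374, 3210, 1268 and 1112 after VSG and 405 and 681 after sham surgery. VSG replicates 2 to 4 lay above both sham libraries and replicate 1 lay below them. The log2 fold change was 1.12 (SE 0.77; 95% interval -0.60 to 2.83; limma adjusted p = 0.76, exact permutation p = 0.4). It was 1.65 without VSG replicate 1 (limma unadjusted p = 0.024), the library with ileal levels of Fabp6, and 0.62 without VSG replicate 2. Ileal Rbpj was 212 and 1004 after VSG and 139 and 467 after sham surgery, and the groups overlapped.

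The fold changes of Maml1 were close to 0. Duodenal VSG libraries had 886, 1294, 834 and 1331, with 955 and 1462 in the sham libraries (log2 fold change -0.15, SE 0.39). In the jejunum the VSG libraries had 662, 854, 1248 and 453, on both sides of the sham libraries at 760 and 737, and the log2 fold change was 0.01 (95% interval -1.28 to 1.29). The ileal log2 fold change was -0.08 (95% interval -2.80 to 2.64). These intervals leave room for changes of more than 1 on the log2 scale in either direction.

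Lfng (ENSMUSG00000029570, chr5:140607320-140615545, plus strand) encodes Lunatic fringe, an enzyme that adds sugars to Notch receptors and alters which ligands activate them. It had the largest duodenal log2 fold change above 0 among the 10 genes. VSG libraries had 964, 853, 429.9 and 1440 normalized counts, and sham libraries had 481 and 363. VSG replicates 1, 2 and 4 lay above both sham libraries, and replicate 3 lay between them. The mean was 922 ± 415 (SD, n = 4) against 422 ± 83.7 (SD, n = 2), a log2 fold change of 1.01 (SE 0.55; 95% interval -0.22 to 2.25; limma unadjusted p = 0.0966, adjusted p = 0.859; exact permutation p = 0.267). It ranged from 0.76 to 1.34 as each library was left out, with a limma unadjusted p of 0.0257 without VSG replicate 3.

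In the jejunum Lfng was 455, 315, 2217 and 474 after VSG and 51.8 and 594 after sham surgery. VSG replicate 3 stood above all others and sham replicate 1 below them, and the remaining 4 libraries lay between 315 and 594. The log2 fold change of 1.82 (SE 1.13; limma adjusted p = 0.76, exact permutation p = 0.467) was 0.07 without sham replicate 1 and 3.56 without sham replicate 2. In the ileum Lfng had 244 in VSG replicate 4 and was listed at 0 in the other 3 libraries, so no fold is given.

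The Jagged ligands, Jag1 (ENSMUSG00000027276, chr2:137081456-137116644, minus strand) and Jag2 (ENSMUSG00000002799, chr12:112907819-112929776, minus strand), bind Notch on neighbouring cells. Duodenal Jag1 was 1210, 991, 1119 and 693 after VSG, and its sham values of 783 and 1272 enclosed 3 of the 4 VSG values. The log2 fold change was -0.02 (SE 0.41; 95% interval -0.94 to 0.89). Jejunal Jag1 was 263, 974, 543 and 1151 after VSG and 797 and 555 after sham surgery (log2 fold change -0.07, SE 0.71). With each library scaled to the same total, both values were above 0, at 0.06 and 0.15, so Jag1 had no stable direction. Ileal Jag1 had 212 in VSG replicate 4 and 156 in sham replicate 2 and was listed at 0 in the other 2 libraries.

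Jag2 was lower than Jag1 per kb in each duodenal and jejunal library. In the duodenum it had 137, 76.6 and 59.5 in VSG replicates 2 to 4 and was listed at 0 in VSG replicate 1, while the sham libraries had 114 and 131. In the jejunum VSG libraries had 139, 179, 101 and 134, sham replicate 2 had 146 and sham replicate 1 was listed at 0. The jejunal log2 fold change was 3.49 (SE 2.22; limma adjusted p = 0.76). It was -0.11 without sham replicate 1 and 7.09 without sham replicate 2, the same dependence on sham replicate 1 as for Nrarp. Ileal Jag2 was 103 and 716 after VSG and 68.3 in sham replicate 2, with sham replicate 1 listed at 0. The VSG libraries lay above the sham libraries there (exact permutation p = 0.333), with a log2 fold change of 5.03 (SE 3.25; limma adjusted p = 0.736) that was 1.98 without sham replicate 1 and 8.09 without sham replicate 2.

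The duodenum and the jejunum came from the same mice, so the change along the intestine was compared between VSG and sham mice. CPM, the value over each library's own total, sets the segments on 1 scale. Hes1 had a median of 119 CPM in the duodenum (73.5 to 128), 55.5 in the jejunum (39.0 to 128) and 16 in the ileum (7.01 to 144). These ranges overlapped, and ileal VSG replicate 4, at 144 CPM, held the highest value of any library. Hes1 was lower in the jejunum than in the duodenum in 5 of 6 mice. The medians of Hes6 were 66.2, 55.5 and 36.4, and those of Nrarp 47.1, 51.9 and 9.17. Lfng had 13.7 and 13.8 CPM in the duodenum and jejunum. These are descriptions of libraries that differ in depth and in makeup.

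The jejunal minus duodenal difference on the log2 scale was then set between the surgeries for 9 of the 10 genes. At a limma unadjusted p under 0.05, 1 of the 9 passed (Nrarp), against 4.1% of the 14718 genes tested, and 0.0% of all genes were called. The Nrarp difference was -1.22 to 0.53 in VSG mice and -11.0 and -0.54 in sham mice, a difference between the surgeries of 5.58 (SE 2.31; limma unadjusted p = 0.0405, adjusted p = 0.948; exact permutation p = 0.133). Without sham replicate 1 it was 0.34. For Hes6 the 4 VSG mice had differences of -0.58 to -0.30 and the 2 sham mice -1.31 and -0.79, which did not overlap. The Hes6 difference was 0.62 (SE 0.38; 95% interval -0.26 to 1.49; limma adjusted p = 0.948), and its exact permutation p of 0.0667 is the smallest possible. It lay between 0.36 and 0.87 as each mouse was left out. Jag2 was the other gene without overlap (5.61, SE 3.02; limma adjusted p = 0.948), with a value of 2.11 without sham replicate 1. In this comparison 11.4% of all genes had groups apart, 6.43% with the higher value after VSG. Of the 9 genes 8 had a difference above 0, against 54.6% of all genes. Hes1 (0.33, SE 0.51) and Rbpj (1.36, SE 0.78) overlapped between the surgeries.

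**Figure D3:**
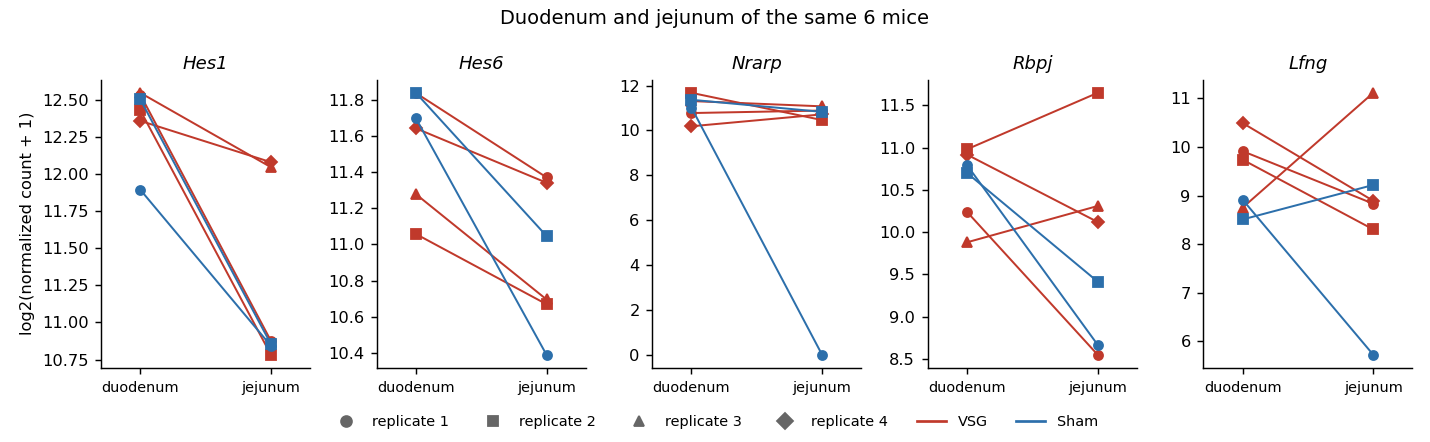
Log2 of the normalized count plus 1 in the duodenum and jejunum of the same 6 mice for 5 of the genes, with a line for each mouse, VSG in red and sham in blue. The segments were normalized separately, so the difference between lines and not the height of the step is compared. Each panel has its own axis, and the Nrarp line of sham replicate 1 falls to 0 in the jejunum.

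The other genes of the pathway, 63 by role, were read from the same fits. In the duodenum 59 could be tested, 32 had a fold change above 0, and 4 had a limma unadjusted p under 0.05 (Notch4, Dll4 and Spdef higher, Furin lower). In the jejunum 5 of 59 had such a p (Dll4, Hdac1, Tle3 and Spdef higher, Hes7 lower), and in the ileum 6 of 56 (Notch1, Gfi1 and Olfm4 higher, Furin, Crebbp and Tle3 lower). The shares of all genes were 6.27%, 6.04% and 3.28%. None of the 63 was called in any segment. In the duodenum groups were apart for 5 of the 59 with higher and 2 with lower values after VSG, beside 14.4% of all genes tested. These numbers were 4 and 1 of 59 in the jejunum (12.8% of all genes) and 10 and 5 of 56 in the ileum (28.6%). The median log2 fold changes were 0.08, 0.11 and 0.75, beside 0.01, 0.11 and 0.24 over all genes.

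**Figure D4:**
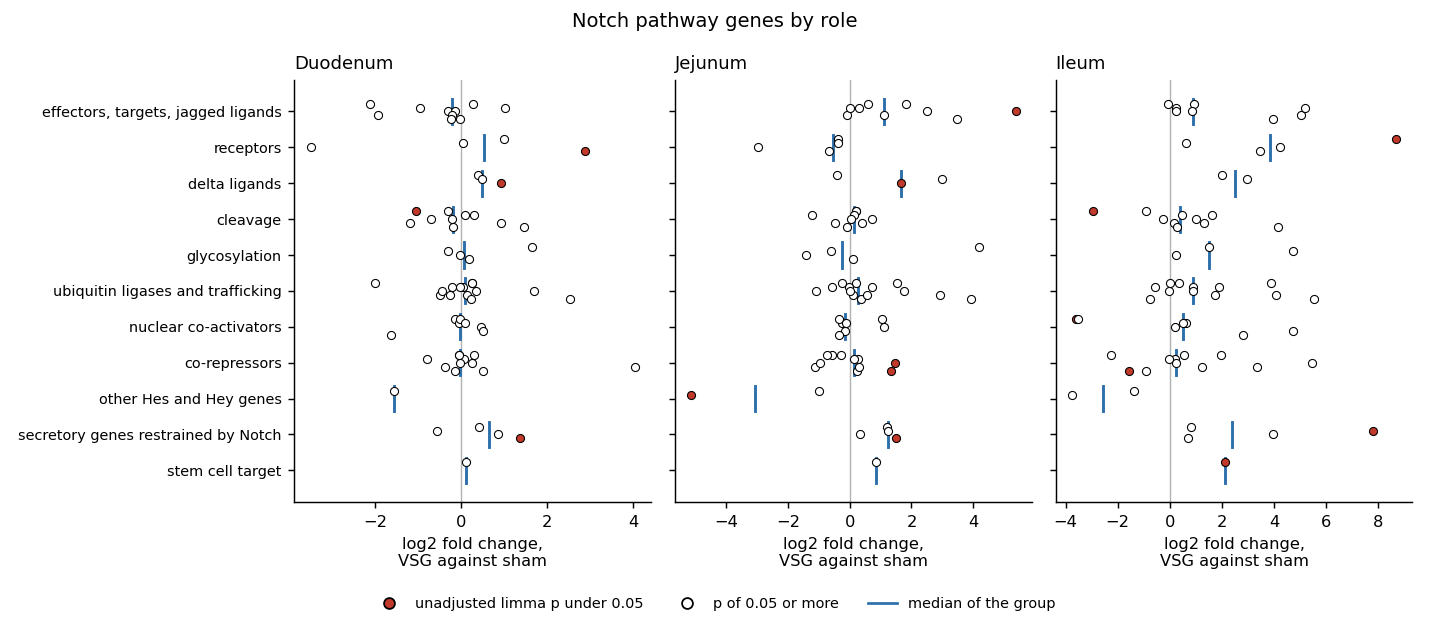
Log2 fold change of VSG against sham for each tested Notch pathway gene, arranged by role, with the 10 genes described here in the top row. Each point is a gene, red points have an unadjusted limma p under 0.05, and blue bars mark group medians. The axes differ between panels, and the points with such a p lie on both sides of 0 in the 3 segments.

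Of the receptors and delta ligands, Dll4, a ligand made by secretory precursors, lay above both sham libraries in all VSG libraries of the duodenum and the jejunum. It had 1119 to 1888 (median 1623) against 733 and 876 in the duodenum (log2 fold change 0.94, SE 0.35; limma adjusted p = 0.666), and 749.5 to 2746 (median 938) against 225 and 600.4 in the jejunum (1.65, SE 0.69; limma adjusted p = 0.76). The exact permutation p was 0.0667 in each. Duodenal Notch1 ranged from 1005 to 32870 after VSG, with sham libraries at 906 and 3191, and VSG replicate 2 held the highest value. Notch2 had log2 fold changes of 0.05, -0.38 and 0.63 in the 3 segments, and Dll1 of 0.39, -0.41 and 2.02, none with a limma unadjusted p under 0.05. Notch4 in the duodenum was 77.0 to 1773 after VSG and 25.4 and 81.5 after sham surgery (2.89, SE 1.28; limma adjusted p = 0.791). Notch3 and Dll3 were listed at 0 in 2 duodenal, 4 jejunal and at least 3 ileal libraries. Ileal Notch1 was 378 and 453 after VSG and listed at 0 in both sham libraries. Of the 4 receptors, 3 in the duodenum and 4 in the ileum had fold changes above 0 (median log2 values 0.52 and 3.84). Ileal Notch3 and Notch4 also had both sham libraries at 0, so the added 1 sets much of the ileal median. In the jejunum the 4 receptors had fold changes below 0, with a median log2 value of -0.53. Of all genes tested, 50.7% (duodenum), 55.0% (jejunum) and 57.0% (ileum) were above 0. Jejunal Notch1 was 268, 4702, 319 and 1921 after VSG and 369 and 4125 after sham surgery (-0.39, SE 1.24), and the groups overlapped for each of the 4.

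Of the secretory genes that Notch holds back, Spdef, a goblet and Paneth cell factor, had the lowest duodenal p. It was 1048 to 1462 (median 1233) after VSG and 349 and 647 after sham surgery, which is a log2 fold change of 1.38 (SE 0.41; limma unadjusted p = 0.00781, adjusted p = 0.533; exact permutation p = 0.0667). In the jejunum it was 1006 to 2893 against 374 and 1026, with 1 VSG library below the higher sham library (1.5, SE 0.57; limma adjusted p = 0.76). Atoh1, the gene that starts secretory differentiation, was 1512, 1556, 1677 and 529.5 in jejunal VSG replicates 1 to 4, with 450.1 and 594 in the sham replicates (1.22, SE 0.59; limma unadjusted p = 0.0676, adjusted p = 0.76). Its duodenal values overlapped widely, at 88.7 to 1179 against 138 and 829. Gfi1, which acts below Atoh1, had 220 to 382 against 69.4 and 185 in the jejunum (1.25, SE 1.07). Neurog3, needed for enteroendocrine cells, had log2 fold changes of 0.86 (SE 0.68) and 0.32 (SE 0.80) in the duodenum and jejunum. Goblet markers were higher after VSG in 7 of 7 cases in both segments, where 50.7% and 55.0% of all genes had fold changes above 0. Of the goblet markers, 1 and 4 had a limma unadjusted p under 0.05. Their sums were 115400 to 301700 against 99120 and 174400 in the duodenum and 202800 to 388500 against 106300 and 231700 in the jejunum. Enteroendocrine markers had fold changes above 0 for 7 of 8 in the duodenum and 4 of 8 in the jejunum, none with a limma unadjusted p under 0.05. Paneth markers had them for 5 of 6 and 6 of 6, with 1 such p, in the jejunum. In the ileum goblet, enteroendocrine and Paneth markers were above 0 for 6 of 7, 8 of 8 and 6 of 6, beside 57.0% of all genes. Only Chgb, an enteroendocrine marker, had such a p there (limma unadjusted p = 0.0141, adjusted p = 0.736). Ileal enteroendocrine sums were 7171 and 12840 against 7070 and 3854 (exact permutation p = 0.333). Tac1 and Pax6 were at 0 in both sham libraries. The part of cell makeup in these values was not tested.

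Among the nuclear partners, Hdac1, a histone deacetylase that works with Rbpj when Notch is off, had the lowest jejunal p of the pathway. It was 3151 to 3886 (median 3348) after VSG and 1038 and 1444 after sham surgery, which is a log2 fold change of 1.48 (SE 0.34; limma unadjusted p = 0.00145, adjusted p = 0.747; exact permutation p = 0.0667). In the duodenum it was 3211 to 4079 against 2838 and 4718 (-0.04, SE 0.27). The difference between segments was 1.52 (SE 0.37; limma unadjusted p = 0.00283, adjusted p = 0.948). Crebbp, a co-activator with histone acetyltransferase activity, was 391 and 483 after VSG and 4211 and 6516 after sham surgery in the ileum (-3.59, SE 0.59; limma unadjusted p = 0.00115, adjusted p = 0.736). It was 592 to 4661 against 616 and 1359 in the jejunum, where the groups overlapped. Tle3, a co-repressor that Hes proteins recruit, was 3418 and 1297 against 6938 and 5677 in the ileum (-1.58) and had a value of opposite sign in the jejunum (1.34). Furin, which cuts the receptor precursor, had ileal values of 722 and 384 against 1481 and 11000. Hes7, an oscillating repressor of the embryo, reached 1.51 at most in jejunal VSG libraries, with 22.3 and 82.2 in the sham libraries.

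Olfm4, a stem cell marker that Notch sustains, was far more abundant in the sham libraries of the duodenum than in those of the ileum, on separate scales. It was 37600 to 79820 after VSG and 52600 and 54350 after sham surgery in the duodenum (log2 fold change 0.12, SE 0.31), and 18160 to 33820 against 7345 and 30320 in the jejunum (0.86, SE 0.53). In the ileum it was 7641 and 5352 against 795 and 2647 (2.14, SE 0.69; limma unadjusted p = 0.0236, adjusted p = 0.736; exact permutation p = 0.333). The 8 stem cell markers summed to 12950 and 8436 after VSG in the ileum, above the sham sums of 5865 and 6553 (exact permutation p = 0.333). Groups were apart for 28.6% of all ileal genes tested. Of the 8 markers 6 had fold changes above 0 and 2 below, none with a limma unadjusted p under 0.05. Much of the difference lay in Slc12a2, with 3545 and 7667 after VSG against 168 and 2491. Axin2 went the other way, with 1377 and 1409 against 2816 and 3477.

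No marker gene of other cell types was called in any segment, and unadjusted p-values are set beside the shares of all genes, 6.27% (duodenum) and 6.04% (jejunum). The 8 enterocyte markers all had fold changes below 0 in both, 6 and 4 of them with a limma unadjusted p under 0.05. Their sums were 269800 to 510000 after VSG in the duodenum, below the sham sums of 596400 and 866100. In the jejunum the sums overlapped, at 294800 to 697100 against 619100 and 1684000, the last in sham replicate 1. In the ileum 5 of the 8 had fold changes above 0. Tuft cell markers had fold changes above 0 in 5 of 5 tested in the duodenum and 6 of 6 in the jejunum. Of these, 5 and 3 had a limma unadjusted p under 0.05. Their sums were 15310 to 32540 against 4829 and 12370 in the duodenum, without overlap (exact permutation p = 0.0667). In the jejunum the tuft sums overlapped, at 6776 to 20490 against 1335 (sham replicate 1) and 11320.

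Vessels carry Jag1, Hey1 and Dll4, and endothelial markers summed to 68.7 to 402 against 128 and 463 in the duodenum and to 0 to 176 against 5.81 and 268 in the jejunum. Emcn was listed at 0 in every library of both, and Kdr in the jejunum. Of the immune markers, 3 could be tested in the duodenum and all had fold changes above 0. Ptprc, which encodes the CD45 that the sort selected against, was 87.0 to 1534 in duodenal VSG libraries and 22.02 and 28.1 in sham libraries (log2 fold change 3.31, SE 1.33; limma unadjusted p = 0.0339, adjusted p = 0.732). Cd74, which takes part in antigen presentation, was 19780 to 57130 against 1765 and 30140 (2.33, SE 0.90; limma unadjusted p = 0.0283, adjusted p = 0.684). Immune sums, nearly all Cd74, overlapped in the duodenum (20080 to 57310 against 1851 and 30160) and the jejunum (21390 to 60340 against 11630 and 44880). These sums follow Cd74 and do not measure immune cells as such. Cd79a, which defines B cells, was listed at 0 in every library, and Cd3e, which defines T cells, reached at most 21.7, in the jejunum, and was listed at 0 in the other segments.

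Stromal markers had fold changes below 0 for 5 of 6 tested in the duodenum, with sums of 82.5 to 190 against 329 and 2261 (exact permutation p = 0.0667). Of the collagen genes, Col1a1 was 0 to 26.5 against 83.2 and 506, and Col1a2 reached at most 1.07 after VSG and was 20.2 and 862 after sham surgery (limma unadjusted p = 0.0427 and 0.0101, adjusted p = 0.77 and 0.559). In the jejunum the stromal sums overlapped, at 33.4 to 780 against 82.2 and 128. The part of these cells in the values of the 10 genes was not tested.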

How the data were processed

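Sorted GFP+ cells of the duodenum, jejunum and ileum gave 16 libraries. Reads had been aligned with STAR 2.5.3a to mm10 and quantified by Salmon 0.6.0, and the authors deposited a signal value per gene and library, a count normalized with DESeq2 within the segment. These are not whole reads over 1 factor per library, and no count model was fitted. Libraries that the authors dropped because few reads mapped are not analysed here. Their tables of fold changes and p-values of VSG against sham were not used.

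Each segment was fitted with limma 3.58.1 (R 4.3.3), with a variance trend, on log2(normalized count + 1), for genes with a mean above 10. Benjamini-Hochberg adjustment was over all of them. Adding 1 understates changes of genes that are low in every library. Where a gene is not detected in some libraries and is high in others, the added 1 sets much of the size of the change. Examples are the log2 fold changes of jejunal Nrarp (5.37), ileal Nrarp (5.21) and ileal Jag2 (5.03). P-values measure the spread between libraries, each 1 segment of 1 mouse. Segments were compared by fitting the jejunal minus duodenal value of each mouse in limma. Permutation tests were exact and two-sided. Scripts were checked on simulated data. Tables were made in Python 3.11.15 (pandas 2.3.3, numpy 2.4.6, scipy 1.17.1) and plots in matplotlib 3.10.9. Positions are from GENCODE on GRCm38, and promoters from RefSeq GRCm38.p6. Symbols were unique for the 10 genes.

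The text names all 10 genes, the Notch receptors, delta ligands, secretory genes and Olfm4, other pathway genes with an unadjusted p under 0.05 (without overlap, or to make a count complete, as for Furin and Tle3, named after their values were seen), and marker genes that define a cell type. Genes, lists and tests were chosen with earlier results of these data known. Alternatives were pseudocounts of 0.5 and 10, filters at a mean of 50 or 0, quantile normalization, equal library totals, limma without trend, a replicate block in the duodenum and leaving out each library. Leaving out both jejunal libraries that stood apart was added after seeing the data.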

Additional observations from a re-analysis of the deposited data

Results flagged for a closer look

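In 4 cases 1 VSG library lay far from the other VSG libraries of its segment, by a gap test on groups of 4 that chance passes in about 1 of 20 groups, and 19 groups were examined. Where 3 of 4 values are 0, as for Hes5 and duodenal Hey1, any value above 0 passes, so that rate does not hold for them. Hes5 had 73.8 normalized counts in duodenal VSG replicate 2 and was listed at 0 in the other 3. Hey1 had 18.4 in duodenal VSG replicate 3, with the other 3 listed at 0, and 81.1 in jejunal VSG replicate 2, with the others at 0, 0 and 11.9. Lfng had 2217 in jejunal VSG replicate 3, against 315 to 474 in the other VSG libraries. The effect of surgery on Nrarp differed between jejunum and duodenum by 5.58 on the log2 scale (limma unadjusted p = 0.0405, adjusted p = 0.948), and this was 0.34 without sham replicate 1, which was listed at 0 for Nrarp in the jejunum.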

How the results depend on the processing

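None of the 10 genes was called in the duodenum under any alternative. Leaving out single libraries gave 0 to 2 called genes in the jejunum (2, Nrarp and Jag2, without sham replicate 2, when 2710 of all genes were called) and 0 to 1 in the ileum (1, Lfng, without VSG replicate 5, when 631 of all genes were called). The number with an unadjusted limma p under 0.05 ranged from 0 to 1 in the duodenum (Hes1 without sham replicate 2, Lfng without VSG replicate 3), 0 to 3 in the jejunum, 0 to 2 in the ileum and 0 to 2 for the jejunal minus duodenal difference, for which Nrarp was called without sham replicate 2 (815 of all genes were called). Without a variance trend, and with every gene of a mean above 0, the 1 gene of the jejunum and the 1 of the difference between segments became 0, and without both jejunal libraries that stood apart the jejunal number was also 0. Of the other pathway genes, the duodenal 4 became 2 with every gene of a mean above 0 and 1 to 7 as libraries were left out, the jejunal 5 became 2 without trend and 2 to 13 as libraries were left out, and the ileal 6 became 3 after quantile normalization and 7 to 10 as libraries were left out. The share of all genes with such a p then also moved, to 5.69% to 8.73% (duodenum), 4.48% to 21.2% (jejunum, the highest without sham replicate 2, as for the 13) and 12.7% to 16.6% (ileum).

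With the replicate block, the 4 duodenal pathway genes became 2, and Hes5, Nrarp and Jag1 changed sign to 0.60, 0.0349 and 0.13. Equal numbers named different mice, and deviations of equally numbered duodenal libraries correlated at -0.049 and -0.026, so the numbers did not pair them. With equal library totals Jag1 was 0.0573 (duodenum), 0.15 (jejunum) and 0.0982 (difference between them), and ileal Maml1 was 0.0318. This scaling moved the median of all genes to 0.34 in the jejunum and 0.35 in the ileum. Quantile normalization gave -0.0886 for jejunal Maml1 and -0.0859 for ileal Jag1. Without both jejunal libraries that stood apart, Hes6 was -0.15 (from 0.30), Nrarp -0.0768, Jag1 0.61 and Jag2 -0.12. Over all alternatives 10 of 136 duodenal, 15 of 112 jejunal, 10 of 77 ileal and 8 of 114 difference values had the opposite sign.

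As each library was left out, duodenal log2 fold changes ranged from -0.0356 to 0.57 for Hes1, -3.46 to 1.56 for Hes5, -0.43 to 0.063 for Nrarp, -0.46 to 0.15 for Maml1 and -0.37 to 0.33 for Jag1. Jejunal values ranged from -0.0275 to 0.63 for Hes6, -0.0428 to 10.8 for Nrarp, -0.24 to 0.25 for Maml1, -0.36 to 0.35 for Jag1 and -0.11 to 7.09 for Jag2. Ileal values ranged from -1.26 to 3.09 for Hes1, -0.26 to 0.72 for Hes6, -0.27 to 1.97 for Rbpj, -0.89 to 0.74 for Maml1 and -3.65 to 4.09 for Jag1. The difference between segments ranged from -0.20 to 0.51 for Maml1, -1.15 to 2.75 for Lfng and -0.66 to 0.56 for Jag1. The cause of these changes was not tested. With 2 sham libraries per segment, 1 library decides many values, and a lone remaining library is assumed to vary like the others. Libraries listed at 0 limit Hes5, Hey1 and Jag2, Nrarp in the jejunum and ileum, and Lfng and Jag1 in the ileum. Ileal Hes1, Hes6, Rbpj and Maml1 were above 0 in every library. All ileal values rest on 2 libraries per group.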
